A study of Mus musculus with 564 samples.

Results

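Arg1, Arg2 and Nos2 encode enzymes that consume arginine in macrophages. Histone H3 acetylated at lysine 27 (H3K27ac) was followed at the cis-regulatory elements (CREs) around these genes. A CRE was taken as a member when its centre lay within 50 kb of an mm10 RefSeq transcription start of 1 of the 3 genes, which gave 21 of the 59190 CREs in the table, 6 at Arg1, 6 at Arg2 and 9 at Nos2. Bone marrow-derived macrophages (BMDMs) were grown from wild type male C57/BL6 mice aged 6 to 8 weeks. For 1 h they received either DMSO, the vehicle, or a clinical kinase inhibitor (CKI), of which there were 58, each at a concentration of its own, so that no dose was matched between compounds. They were then left untreated (UT) or given lipopolysaccharide (LPS), a bacterial ligand of the receptor TLR4, or interleukin 4 (IL-4), a cytokine of type 2 immunity, for 0.5 h, 1 h, 2 h or 4 h. Both stimuli were used at 10 ng/mL. H3K27ac marks promoters and enhancers in use. ChIP-seq of this mark gave 564 libraries, of which 18 were DMSO libraries in 9 groups of 2 and 546 were CKI libraries, mostly 1 library for each compound, stimulus and time.

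Arginase and nitric oxide synthase take the same amino acid in different directions. Arg1 encodes the cytosolic arginase and Arg2 the mitochondrial arginase, which split arginine into ornithine and urea and so feed polyamine and proline synthesis, whereas Nos2 encodes the inducible nitric oxide synthase, which turns arginine into citrulline and nitric oxide. In mouse macrophages Nos2 is a textbook gene of LPS and interferon activation, driven by NF-kB and IRF1, and Arg1 is a textbook gene of IL-4 activation, driven by STAT6 with C/EBPβ and PU.1. H3K27ac reports the state of a CRE and not transcript or enzyme level, and in a population a mark on fewer cells cannot be told apart from less of it in each cell.

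Elements are named by the gene and the distance of their centre from its transcription start, with negative distances upstream. The Arg1 elements lie on chromosome 10 between 24910599 and 24962061 (mm10), and the gene is read from the minus strand. The promoter element (chr10:24926716-24929154) overlaps the start, the −3.5 kb (chr10:24929501-24932528), −22.9 kb (chr10:24949645-24951189) and −25.3 kb (chr10:24951933-24953699) elements lie in an intron of the predicted gene Gm36228, the −33.8 kb element (chr10:24960482-24962061) is intergenic and the +16.0 kb element (chr10:24910599-24912339) lies in an intron of the neighbour Med23. The Arg2 elements lie on chromosome 12. The promoter (chr12:79129932-79133107) and the +7.3 kb element (chr12:79137310-79138938) are centred in introns of Arg2 and the +10.6 kb element (chr12:79140271-79142435) is centred in an exon of Gm40462 within Arg2, whereas the −41.1 kb and +41.7 kb elements are the promoters of the neighbours Pigh and Vti1b and the −38.1 kb element lies in an intron of 9230116L04Rik. The Nos2 elements lie on chromosome 11. The −44.6 kb (chr11:78875362-78877092), −33.7 kb (chr11:78886152-78887975), −31.5 kb (chr11:78888410-78890142), −23.8 kb (chr11:78896139-78897742) and −4.2 kb (chr11:78915758-78917445) elements are intergenic, the promoter (chr11:78919062-78921471) overlaps the first of 3 annotated starts, the +25.3 kb element (chr11:78949727-78951387) lies in a Nos2 intron, and the +42.3 kb and +48.3 kb elements lie in introns of Lgals9. Position near a gene does not show that an element acts on it.

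The central 300 bases of 6 elements are shown because these elements carry the IL-4 response at Arg1 and the LPS response at Nos2 described next. They were read from the plus strand of mm10, and capitals mark matches to short motifs of factors known in these pathways, searched on both strands. The first 3 come from Arg1, at chr10:24930864-24931163, chr10:24952666-24952965 and chr10:24961121-24961420.
Arg1 −3.5 kb: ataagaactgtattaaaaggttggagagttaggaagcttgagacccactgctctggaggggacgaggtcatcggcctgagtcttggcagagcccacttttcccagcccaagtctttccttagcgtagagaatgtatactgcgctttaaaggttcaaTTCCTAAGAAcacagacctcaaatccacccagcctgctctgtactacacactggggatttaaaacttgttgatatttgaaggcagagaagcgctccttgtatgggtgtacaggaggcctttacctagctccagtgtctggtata
Arg1 −25.3 kb: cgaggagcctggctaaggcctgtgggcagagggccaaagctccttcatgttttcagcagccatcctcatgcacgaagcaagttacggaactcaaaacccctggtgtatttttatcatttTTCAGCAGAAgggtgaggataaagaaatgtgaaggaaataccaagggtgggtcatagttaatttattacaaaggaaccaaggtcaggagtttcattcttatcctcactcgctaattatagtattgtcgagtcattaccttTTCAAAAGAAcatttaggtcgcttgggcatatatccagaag
Arg1 −33.8 kb: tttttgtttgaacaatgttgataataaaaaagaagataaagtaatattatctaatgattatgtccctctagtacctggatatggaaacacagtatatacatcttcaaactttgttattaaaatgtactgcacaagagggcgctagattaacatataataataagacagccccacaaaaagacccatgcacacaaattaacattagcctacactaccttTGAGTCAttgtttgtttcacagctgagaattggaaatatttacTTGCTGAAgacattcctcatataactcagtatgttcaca
The other 3 come from upstream of Nos2, at chr11:78876077-78876376, chr11:78886913-78887212 and chr11:78889126-78889425.
Nos2 −44.6 kb: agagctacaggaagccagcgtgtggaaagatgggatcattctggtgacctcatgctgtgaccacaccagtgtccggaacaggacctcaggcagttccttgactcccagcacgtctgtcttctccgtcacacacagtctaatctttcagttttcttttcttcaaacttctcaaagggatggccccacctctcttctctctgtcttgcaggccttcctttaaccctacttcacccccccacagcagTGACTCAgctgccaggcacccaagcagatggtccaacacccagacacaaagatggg
Nos2 −33.7 kb: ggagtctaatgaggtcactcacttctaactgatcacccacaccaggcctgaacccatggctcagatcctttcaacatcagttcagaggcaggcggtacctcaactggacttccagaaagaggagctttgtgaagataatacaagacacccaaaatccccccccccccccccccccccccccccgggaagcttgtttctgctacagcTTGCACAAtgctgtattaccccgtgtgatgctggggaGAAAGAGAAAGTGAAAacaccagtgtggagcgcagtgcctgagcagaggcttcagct
Nos2 −31.5 kb: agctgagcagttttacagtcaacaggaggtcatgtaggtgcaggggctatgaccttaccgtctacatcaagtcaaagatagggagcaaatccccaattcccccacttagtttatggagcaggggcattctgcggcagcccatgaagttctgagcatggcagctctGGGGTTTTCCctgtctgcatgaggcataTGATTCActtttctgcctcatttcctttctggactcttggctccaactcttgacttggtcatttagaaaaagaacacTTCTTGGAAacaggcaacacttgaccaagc
The capitals mark 1 STAT6 match (TTC and GAA with 4 bases between them) at Arg1 −3.5 kb, 2 at Arg1 −25.3 kb, an AP-1 (TGANTCA) and a C/EBP match (TTGCNNAA) at Arg1 −33.8 kb, 1 AP-1 match at Nos2 −44.6 kb, a C/EBP match and 2 overlapping ISRE matches (GAAA repeated after 2 bases, the element of interferon-regulated factors) at Nos2 −33.7 kb, and an NF-kB, an AP-1 and a STAT match (TTCNNNGAA) at Nos2 −31.5 kb. Among the central windows of all 59190 CREs, 9.22% held the STAT6 letters, 9.4% the STAT letters, 20.2% the AP-1 letters, 5.14% the ISRE letters, 8.96% the NF-kB consensus, 14.7% the C/EBP letters and 23.4% the PU.1 letters (GAGGAAG). Of the 21 members 4 held a STAT6 match, 2 a STAT match, 5 an AP-1 match, 2 an ISRE match, 1 an NF-kB match, 6 a C/EBP match and 1 a PU.1 match. The 4 elements with a STAT6 match were the Arg1 promoter, Arg1 −3.5 kb, Arg1 −25.3 kb and Nos2 +25.3 kb. A match is a run of letters and not a bound site.

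Values are read counts per CRE that the authors scaled between libraries, and differences are on log2(value + 5), which understates changes of weak elements. Scaled totals ran from 4.06689e+06 to 1.23914e+07. The spacing of the values puts the reads in CREs at 2.3452e+06 to 1.15793e+07 in the DMSO libraries and at 173036 to 8.3535e+06 in the CKI libraries, without an estimate for 3 libraries. The contrast of a library, taken as the median of the strongest 10% of CREs over that of the weakest 10%, ran from 53 to 134 in the DMSO libraries and from 3.34 to 67.2 in the CKI libraries, and no part of this gap can be told apart from the CKIs as a whole. DMSO replicates correlated at r = 0.959 to 0.982 over CREs and differed with an SD of 0.25 to 0.35 on the log2 scale. The labelled cell type was checked on promoter elements. All 8 macrophage markers had one, at 102 to 370 per kb in UT, and no marker of T cells, B cells, neutrophils, eosinophils and mast cells or epithelium had one. Of 3 dendritic cell and 3 fibroblast markers, Flt3 and Col1a1 had one, at 4.31 and 2.19 per kb.

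Before stimulation the Arg1 promoter was the strongest of the 3 per length, at 54.1 per kb, against 6.45 at Arg2 and 4.15 at Nos2 (means of the 2 DMSO UT libraries). The 10387 promoters of protein-coding genes had a median of 72.8 per kb with quartiles of 41.7 and 111, so Arg1 lay within the middle range and Arg2 and Nos2 lay under it. The Arg1 promoter held 11 and 15.5 times the level per kb of the Nos2 promoter in the UT libraries. After IL-4 that ratio lay between 31.4 and 111 in the 8 libraries. After LPS it turned within the course. The Nos2 promoter stood at 0.286 and 0.447 of the Arg1 promoter at 0.5 h, at 1.95 and 2.79 times it at 1 h, at 3.85 and 3.91 times at 2 h and at 4.51 and 5.67 times at 4 h.

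The first comparison asks how the 2 stimuli change these elements without an inhibitor. IL-4 raised all 6 Arg1 elements from 0.5 h on, and LPS lowered 3 of them and raised none. LPS raised 7 of the 8 Nos2 elements that could be tested, by up to 5.35 on the log2 scale, whereas IL-4 raised 1 and lowered 1 of 5. At Arg2 2 of 5 elements were higher after LPS, the promoter from 0.5 h and +7.3 kb at 4 h alone, and 3 of 6 after IL-4, all from 0.5 h. An element was called when the moderated F test of limma over the 4 times, adjusted over all CREs, gave an adjusted p under 0.01 and the largest difference from UT exceeded 1 on the log2 scale. Of all CREs tested, 29% were called higher and 24.6% lower after LPS, and 13.6% higher and 11% lower after IL-4, against 9 higher and 3 lower of 19 members after LPS and 10 higher and 1 lower of 17 after IL-4. The median of the largest difference was 1.00 over the members and 0.37 over all CREs after LPS, and 1.35 and 0.21 after IL-4. Both courses share the 2 UT libraries. Elements with a mean under 10 were not tested. They were Nos2 +42.3 kb in both courses, Arg2 −38.1 kb in the LPS course and Nos2 −44.6 kb, −31.5 kb and −23.8 kb in the IL-4 course. The last 3 passed this filter in the LPS course through their LPS values. The Nos2 counts of the 2 courses thus cover different elements and cannot be set against each other.

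**Figure D1:**
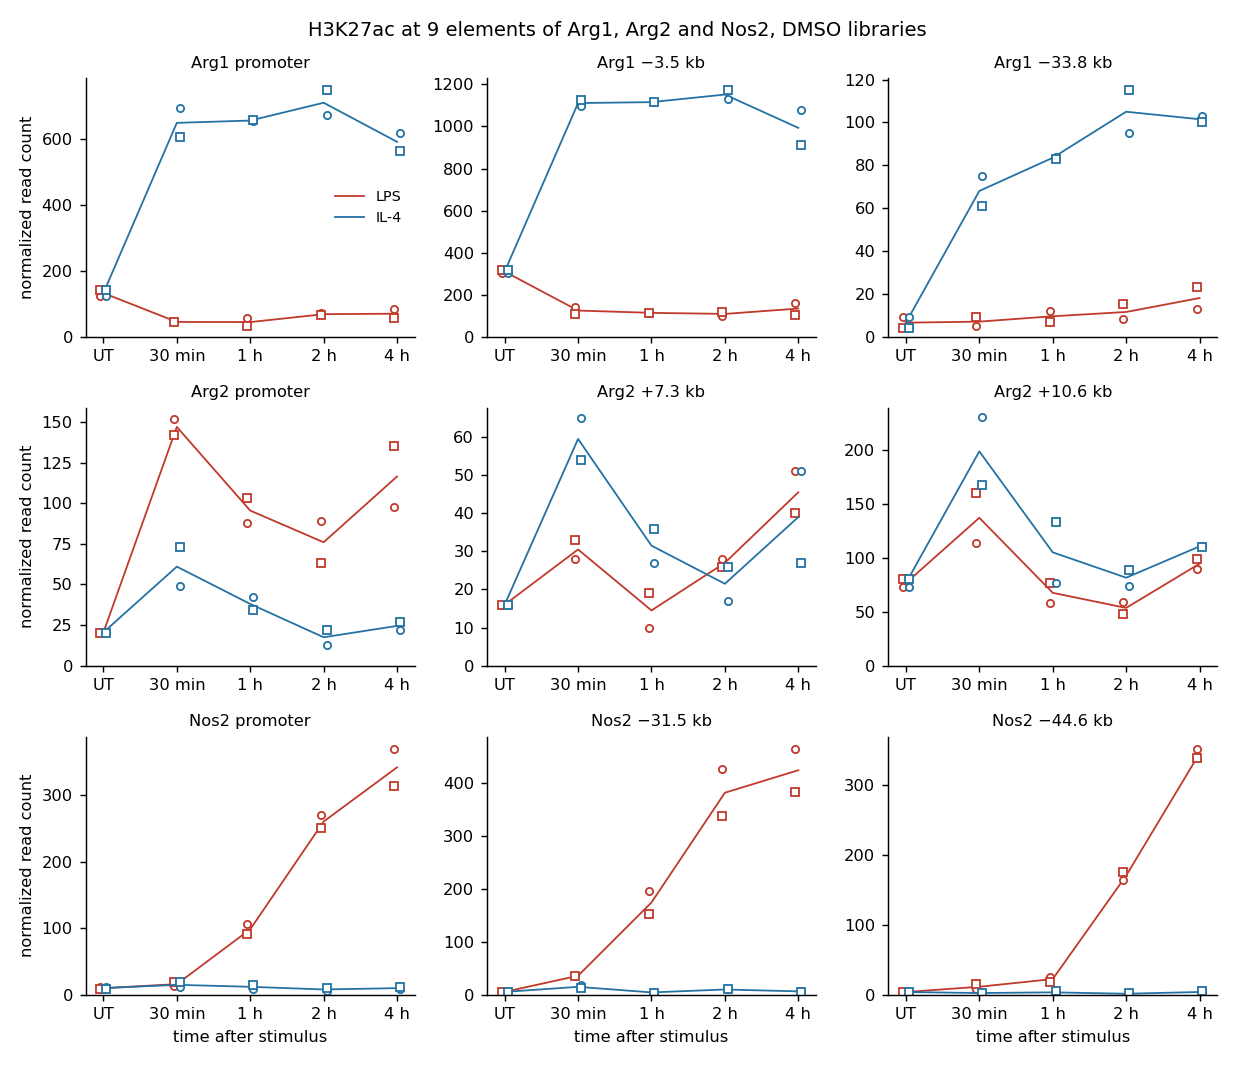
Scaled read count (vertical axes) in every DMSO library against hours of stimulation at 9 elements of the 3 genes, with LPS in red, IL-4 in blue, circles and squares for replicates 1 and 2 and lines for their means. Arg1 elements part from UT within 0.5 h, upward with IL-4, and the Nos2 elements climb with LPS until 4 h.

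The Arg1 promoter read 123 and 141 in the UT libraries. After IL-4 it read 692 and 604 at 0.5 h, 654 and 656 at 1 h, 671 and 747 at 2 h and 617 and 564 at 4 h. After LPS it read 46 and 43 at 0.5 h, 55 and 33 at 1 h, 71 and 65 at 2 h and 83 and 56 at 4 h. The 3 conditions did not overlap at any time, with IL-4 above UT and UT above LPS. By group mean the order ran from IL-4 at 2 h through 1 h, 0.5 h and 4 h to UT and then LPS at 4 h, 2 h, 0.5 h and 1 h. The replicates of IL-4 at 0.5 h overlapped those at 1 h and at 4 h, and those of LPS overlapped between 4 h and 2 h and between 0.5 h and 1 h. The other neighbours in that order did not overlap. The largest difference from UT was 2.38 ± 0.10 (SE) after IL-4, at 2 h (limma, adjusted p = 3.139e-26), and −1.52 ± 0.25 after LPS, at 1 h (limma, adjusted p = 9.428e-06). The fall after LPS passed both thresholds at 0.5 h and 1 h only and stood at −0.91 and −0.90 at 2 h and 4 h.

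The upstream Arg1 elements moved with the promoter after IL-4, and the far ones started from near nothing. The −33.8 kb element, the most distant and intergenic, read 9 and 4 in UT, and after IL-4 75 and 61 at 0.5 h, 84 and 83 at 1 h, 95 and 115 at 2 h and 103 and 100 at 4 h. All 8 IL-4 libraries were above both UT libraries, and the difference reached 3.29 ± 0.24 at 2 h (limma, adjusted p = 3.408e-17). After LPS it read 5 to 15 until 2 h and 13 and 23 at 4 h, a difference of 1.00 at 4 h that was not called (limma, adjusted p = 0.1838 over the 4 times). The −25.3 kb element, which holds 2 STAT6 matches in the sequence shown, rose by 3.17 ± 0.24 after IL-4 and was not called after LPS.

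Nearer elements were already marked in UT. The −3.5 kb element read 303 and 316 in UT and stood between 910 and 1175 in the 8 IL-4 libraries and between 100 and 162 in the 8 LPS libraries. It rose by 1.88 ± 0.08 after IL-4 and fell by 1.48 ± 0.19 after LPS, past both thresholds at all 4 times of each course. The −22.9 kb element had the largest fall after LPS. It read 44 and 63 in UT, and 13 and 25 at 0.5 h, 12 and 10 at 1 h, 16 and 10 at 2 h and 19 and 20 at 4 h of LPS. Every LPS library lay below both UT libraries, with a difference of −1.85 ± 0.36 at 1 h (limma, adjusted p = 0.000158). This call was lost when UT replicate 2 was left out (−1.62, limma, adjusted p = 0.02824). The +16.0 kb element in Med23 rose by 1.80 after IL-4 and stood at −0.98 after LPS, just short of the threshold.

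Arg2 had its largest promoter differences at 0.5 h of both stimuli. Its promoter read 21 and 20 in UT. After LPS it read 152 and 142 at 0.5 h, 88 and 103 at 1 h, 89 and 63 at 2 h and 98 and 135 at 4 h. After IL-4 it read 49 and 73 at 0.5 h, 42 and 34 at 1 h, 13 and 22 at 2 h and 22 and 27 at 4 h. Both courses peaked at 0.5 h, and all LPS libraries stayed above UT while the IL-4 libraries overlapped UT at 2 h. The order of group means was LPS at 0.5 h, 4 h, 1 h and 2 h, then IL-4 at 0.5 h, 1 h and 4 h, then UT and IL-4 at 2 h, and neighbours overlapped between LPS at 4 h and 1 h, between LPS at 1 h and 2 h, between LPS at 2 h and IL-4 at 0.5 h and between UT and IL-4 at 2 h. The difference from UT was 2.58 ± 0.23 at 0.5 h of LPS (limma, adjusted p = 2.556e-11) and 2.24 at 4 h. After IL-4 it was 1.35 ± 0.30 at 0.5 h (limma, adjusted p = 8.831e-05) and −0.21 at 2 h. With a pseudocount of 20 the IL-4 difference came to 0.98 and was no longer called.

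The intronic Arg2 elements also peaked at 0.5 h after IL-4. The +7.3 kb element read 16 and 16 in UT, and after IL-4 65 and 54 at 0.5 h, 27 and 36 at 1 h, 17 and 26 at 2 h and 51 and 27 at 4 h. Its IL-4 difference was 1.61 ± 0.30 at 0.5 h, and its LPS difference was largest at 4 h, at 1.26 ± 0.33 (limma, adjusted p = 0.001373), from values of 51 and 40. The LPS call was lost with a pseudocount of 20 (0.86), with quantile normalization (0.92) and without LPS 4 h replicate 1 (limma, adjusted p = 0.01626). The +10.6 kb element rose by 1.30 ± 0.20 at 0.5 h of IL-4, and its largest LPS difference of 0.78 was not called. The Pigh and Vti1b promoters at −41.1 kb and +41.7 kb were not called in either course, with largest LPS differences of 0.41 and 0.49.

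At Nos2 3 elements, none of them the promoter, were past both thresholds at 0.5 h of LPS, 1 of them (+25.3 kb) from about 1 read in UT. The −31.5 kb element, which holds the NF-kB match shown, read 6 and 5 in UT, and 36 and 36 at 0.5 h, 196 and 153 at 1 h, 426 and 338 at 2 h and 465 and 384 at 4 h of LPS. In the IL-4 libraries it read between 4 and 18. LPS libraries were above UT at every time, the 2 h and 4 h libraries overlapped, and the difference grew from 1.97 at 0.5 h through 4.09 and 5.20 to 5.35 ± 0.21 at 4 h (limma, adjusted p = 2.781e-22).

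The Nos2 promoter read 11 and 9 in UT, 13 and 19 at 0.5 h, 106 and 91 at 1 h, 270 and 251 at 2 h and 370 and 314 at 4 h of LPS, and 6 to 19 in the 8 IL-4 libraries. Only the LPS libraries from 1 h on left the range of the other DMSO libraries, and their 3 times did not overlap each other. The difference from UT was 0.47 at 0.5 h, short of the threshold, then 2.79, 4.15 and 4.53 ± 0.23 (limma, adjusted p = 6.074e-20). After IL-4 it was at most 0.39 ± 0.38 (limma, adjusted p = 0.6472). Across the locus 3 elements passed both thresholds from 0.5 h of LPS (−33.7 kb, −31.5 kb and +25.3 kb), 3 from 1 h (−44.6 kb, −23.8 kb and the promoter) and 1 from 2 h (−4.2 kb). The early pass of +25.3 kb rests on values near the floor, 1 and 1 in UT and 13 and 6 at 0.5 h. In the CKI libraries this element stood at 0.45 at 0.5 h of LPS and was not called. Whether the times of first call differ between elements was not tested.

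Of the other tested Nos2 elements, 5 were called higher after LPS, from different starting levels, and +48.3 kb was not called. The −44.6 kb element read 4 and 4 in UT, 165 and 176 at 2 h and 352 and 339 at 4 h of LPS, a rise of 5.28 ± 0.28, and at most 5 in the IL-4 libraries. The −33.7 kb element, with the ISRE letters, read 28 and 39 in UT and rose by 3.86 ± 0.17. The −23.8 kb element rose by 3.56 ± 0.35 from a UT value of 1 in both libraries, which is about the worth of 1 read, so this difference depends on the pseudocount. The −4.2 kb element was already marked in UT, at 98 and 117, and was called in opposite directions after the 2 stimuli. It stood at −0.45 at 0.5 h of LPS, rose by 1.84 ± 0.18 at 4 h to 425 and 369, and after IL-4 fell by 1.01 ± 0.20 at 2 h (limma, adjusted p = 0.0001638), to 51 and 50. The IL-4 fall came to −0.96 with quantile normalization, −0.85 with a pseudocount of 20 and −0.89 without UT replicate 2, under the threshold each time.

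One Nos2 element was called higher after IL-4. The intronic +25.3 kb element read 1 and 1 in UT, and 10 and 24 at 0.5 h, 17 and 9 at 1 h, 22 and 16 at 2 h and 2 and 15 at 4 h of IL-4. The difference of 1.99 ± 0.43 at 2 h (limma, adjusted p = 0.000501) starts from about 1 read and came to 0.89, not called, with a pseudocount of 20. After LPS the same element read 6 to 14 until 1 h, 61 and 43 at 2 h and 62 and 81 at 4 h, a rise of 3.66 ± 0.36. Of the elements within Lgals9, +48.3 kb was not called in either course.

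**Figure D2:**
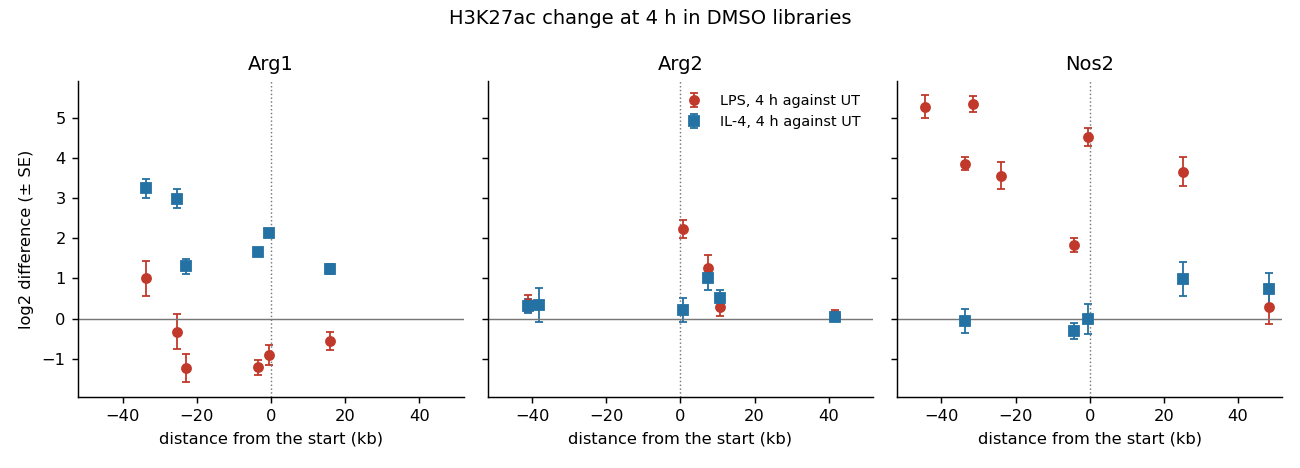
Log2 difference from UT at 4 h (vertical axis, with SE) at each tested element against its distance from the transcription start in kb, for LPS (circles) and IL-4 (squares). IL-4 points lie above 0 at all Arg1 elements and LPS points lie high across the Nos2 locus, with 5.35 at −31.5 kb.

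The next comparison sets LPS against IL-4 at matched times over the 18 DMSO libraries. All 6 Arg1 elements were lower with LPS, 7 of 8 Nos2 elements were higher, and of Arg2 only the promoter was called, higher with LPS. Of those 7, the −44.6 kb, −31.5 kb and −23.8 kb elements passed the filter on the mean through their LPS values. Of all CREs 29.2% were called higher and 29.2% lower with LPS than with IL-4, against 8 higher and 6 lower of 19 members. The Arg1 promoter differed most at 1 h, by −3.79 ± 0.18, and the −22.9 kb element by −3.55. At Nos2 the difference at the promoter was 0.085 at 0.5 h and 4.54 ± 0.30 at 4 h, and it reached 5.29 at −44.6 kb and 5.22 at −31.5 kb. The Arg2 promoter was higher with LPS at all 4 times, by 1.23 at 0.5 h and 2.03 ± 0.27 at 4 h (limma, adjusted p = 1.352e-12 over the 4 times). With quantile normalization 1 Arg2 element was called higher and 1 lower.

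**Figure D3:**
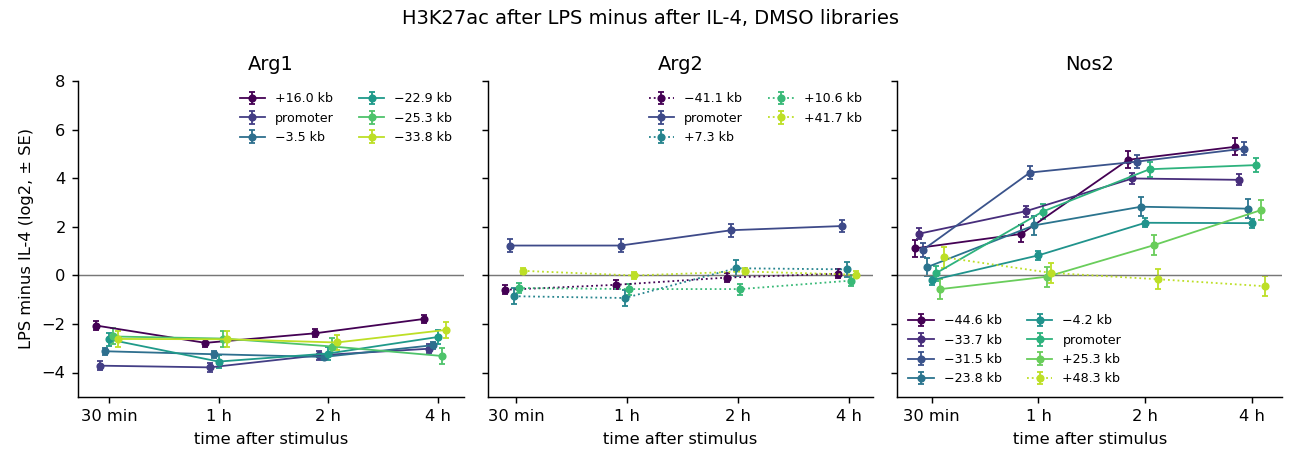
LPS minus IL-4 log2 difference (vertical axis, with SE) against hours of stimulation, 1 line per element in a panel for each gene, dotted where the element was not called. Arg1 lines stay below 0 at all times, and most Nos2 lines rise, from values between −0.57 (+25.3 kb) and 1.71 (−33.7 kb) at 0.5 h to between 2 and 5.29.

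Genes that supply or use the products of these enzymes were read at their own promoters. Beside their counts stand the shares of all CREs, 29% called higher and 24.6% lower after LPS, and 13.6% higher and 11% lower after IL-4. Of 5 arginine transport genes, 2 were higher and 1 lower after LPS and 1 higher after IL-4. Slc7a2, which encodes the cationic amino acid transporter of activated macrophages, rose with both stimuli, by 3.46 ± 0.22 at 2 h of LPS (limma, adjusted p = 1.23e-15) and 3.33 ± 0.18 at 1 h of IL-4 (limma, adjusted p = 8.279e-23). Slc7a1 rose by 1.07 and Slc7a7 fell by 1.20 after LPS. Of the 2 genes that return citrulline to arginine, Ass1, the argininosuccinate synthase, rose by 2.64 ± 0.20 at 4 h of LPS and Asl was not called. Among the genes reported for tetrahydrobiopterin, the cofactor of nitric oxide synthase, LPS raised Gch1 (1.43) and Pts (1.03) and lowered Qdpr (−1.05), Gchfr and Spr were not called, and none of these was called after IL-4.

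On the arginase side, 1 of 11 ornithine and polyamine genes was higher after IL-4 and 1 lower after LPS, beside 13.6% and 24.6% of all CREs. They were Srm, the spermidine synthase, at 1.81 ± 0.15 after IL-4, and Paox, a polyamine oxidase, at −1.81 ± 0.24 after LPS. Odc1, which encodes ornithine decarboxylase, stood at 0.76 after IL-4 and was not called. None of 6 proline genes and neither of the 2 methylarginine genes with a promoter element (of 4) was called. Of 7 other genes tied to arginine metabolism 2 had an element, and both were higher after IL-4, Gatm by 1.46 and Azin2 by 1.51. The list medians after LPS and IL-4 were 0.72 and 0.98 for transport and 1.07 and 0.34 for citrulline recycling. They were 0.31 and 0.35 for ornithine and polyamines, −0.42 and 0.47 for proline and 0.08 and 0.30 for methylarginine. Gatm and Azin2 together gave −0.32 and 1.49. Over all CREs the medians were 0.37 and 0.21. Of the 8 macrophage markers 5 were lower after LPS and 1 after IL-4, beside 24.6% and 11% of all CREs, and none was higher.

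The promoters most like each member over the 18 DMSO libraries were ranked by Pearson's r among the same 10387 protein-coding promoters, as a description over libraries that share stimuli. Nearest to Arg1 were Matn3 (r = 0.983), Snx29 (0.978), Klhl33 (0.977), Borcs5 (0.974) and Cbl (0.973). Nearest to Arg2 were Plek (0.962), Optn (0.952), Ctsz (0.937), Il1b (0.925) and the element shared by Hspa1a and Hspa1l (0.918). Nearest to Nos2 were Oasl1 (0.983), Il15 (0.982), the element shared by Sp110 and Sp140 (0.981), Lipg (0.981) and Rsad2 (0.980). Oasl1, Il15, Sp110 and Rsad2 are known as interferon-stimulated genes and Il1b is an inflammatory cytokine gene.

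The CKI libraries repeat both time courses in other libraries under 58 compounds, each compared with its own UT library. The main responses were seen there too, at smaller size. At 4 h of LPS the Nos2 promoter was 3.02 ± 0.09 above UT (limma, called) and higher in 55 of 55 CKIs, from 1.10 with X396 to 4.66 with Tofacitinib. At 4 h of IL-4 the Arg1 promoter was 1.61 ± 0.05 above UT and higher in 55 of 55. DMSO stood at 4.53 and 2.12 in the same contrasts, and its libraries had the higher contrast described before, whose part in this gap was not tested. Calls used an adjusted p under 0.01 and a log2 difference over 1.

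After LPS the early Arg1 fall and Arg2 rise recurred. At 0.5 h the Arg1 promoter fell by 1.25 ± 0.08 and was lower in 57 of 58 CKIs, the −3.5 kb element fell by 1.20 (56 of 58), and the Arg2 promoter rose by 1.53 ± 0.07 (57 of 58). At that time 6.15% of all CREs were called higher and 6.35% lower, against 3 higher and 2 lower of the 21 members, the other higher ones being Nos2 −33.7 kb (1.16) and −31.5 kb (1.49, 58 of 58). At 4 h 8 members were called, all higher (10.3% of CREs higher and 8.35% lower), of which 7 were Nos2 elements with −44.6 kb at 3.46 and −31.5 kb at 3.41, and 1 was the Arg2 promoter at 1.09 (51 of 55), which came to 0.99 with quantile normalization. No Arg1 element was called at 4 h of LPS, and the promoter stood at −0.76.

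After IL-4 all 6 Arg1 elements were called higher at 0.5 h, with the promoter at 1.88 and higher in 58 of 58 CKIs, beside 1 Arg2 element (+7.3 kb, 1.25, 56 of 58) and no Nos2 element. Of all CREs 3.68% were higher and 0.0964% lower at that time. At 4 h 4 members were called, all at Arg1 (3.31% of CREs higher and 2.24% lower), with −33.8 kb at 1.84, the promoter at 1.61, −25.3 kb at 1.36 and −3.5 kb at 1.08. No CKI removed the rise at the Arg1 promoter in these single libraries. The lowest difference from own UT was 0.48 at 4 h, with Tanzisertib, and the highest was 3.14, with PF04691502.

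**Figure D4:**
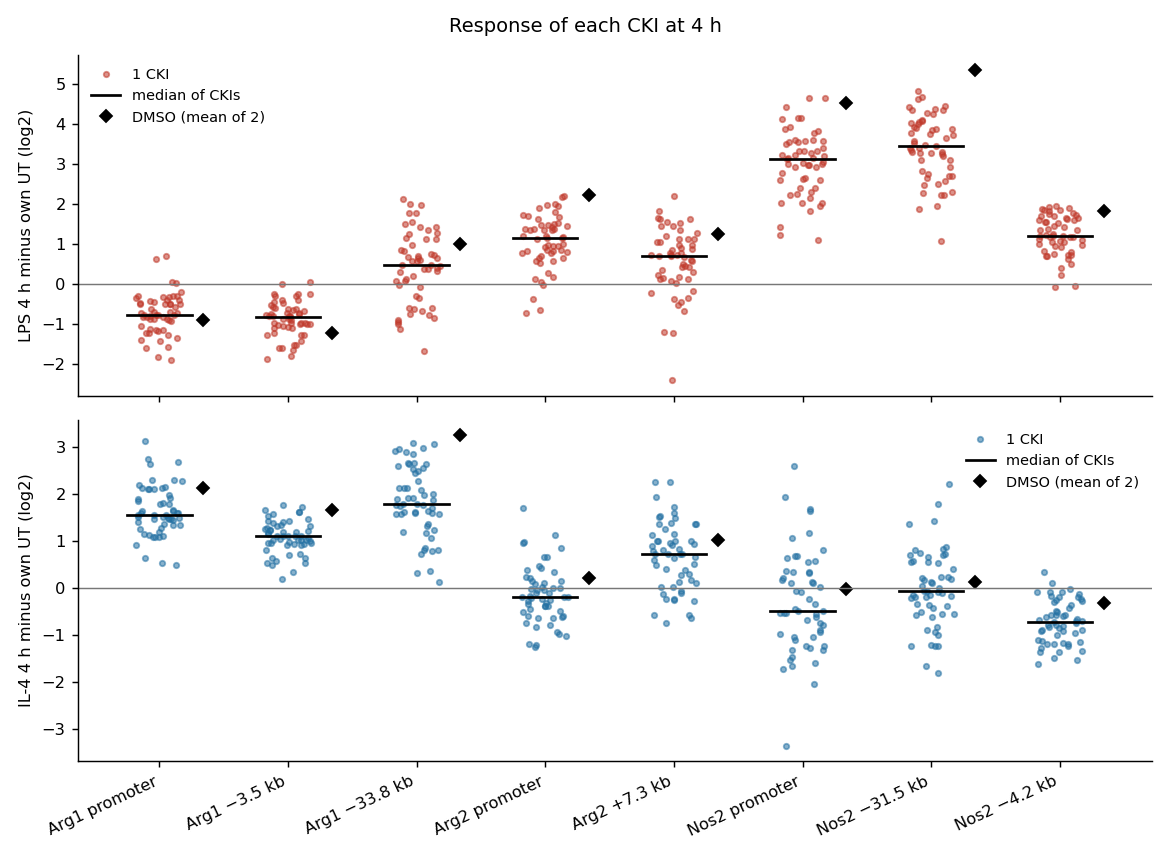
Log2 difference at 4 h from the compound's own UT library (vertical axes) at 8 elements of the 3 genes, a point per CKI with the median of CKIs as a line and the mean of the 2 DMSO libraries as a diamond, for LPS above and IL-4 below. All 55 CKIs lie above 0 at the Nos2 promoter with LPS and at the Arg1 promoter with IL-4, and the DMSO diamonds lie above the medians there.

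Each CKI was then compared with DMSO over UT and the times of a stimulus together. The UT libraries thus enter the values given for both stimuli, and a difference already present in UT counts in each. An element and CKI formed a pair, called at an adjusted p under 0.05 and a log2 difference over 0.5. After IL-4, 541 of the 1218 member pairs were higher and 99 lower, beside 36.2% higher and 3.03% lower of all pairs. All 99 lower pairs were at Arg1, of 348, and they fell on the strong elements, with 36 of 58 CKIs at the promoter, 38 at −3.5 kb, 18 at +16.0 kb, 5 at −22.9 kb and 1 each at −25.3 kb and −33.8 kb. In the same libraries the other 2 genes moved the opposite way. Of the higher pairs 374 were at Nos2, of 522, 165 at Arg2, of 348, and 2 at Arg1. The median difference was 1.20 at Nos2, 0.59 at Arg2 and −0.36 at Arg1. After LPS 441 pairs were higher and 9 lower, beside 32.3% and 4.04%. The median difference was 0.49 over the member pairs and 0.39 over all pairs after LPS.

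These counts moved with the scaling. With quantile normalization, which gives every library the same distribution, 65 member pairs were higher and 76 lower after IL-4 (2.78% and 3.76% of all pairs), of which 73 lower ones were at Arg1, and 29 were higher and 11 lower after LPS (1.99% and 2.63%). Of the higher pairs left after IL-4, 33 were at Arg2 and 32 at Nos2, and the Nos2 median went from 1.20 to 0.27. The Arg1 median after IL-4 was −0.36 before and −0.38 after quantile normalization, and that over all pairs went from 0.41 to 0.00. After LPS the median went from 0.49 to 0.083 over the member pairs and from 0.39 to 7e-04 over all pairs. With library depth as a covariate 51 Arg1 pairs stayed lower. Against the other CKIs of the same run of columns in place of DMSO, 3 were. That reference removes any difference from DMSO that the CKIs of a run share, so it cannot test such a difference. The CKI columns lie in 6 such runs, whose median contrast ran from 11.2 to 35.1 and median reads from 893703 to 4.56001e+06, against a median contrast of 75.1 in DMSO, and the part of contrast in the Arg1 difference was not tested.

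The Arg1 difference can also be read as levels, which are the same scaled values of the same libraries and no separate evidence. At 0.5 h of IL-4 the Arg1 promoter read 226 to 586 with a median of 437 in 60 CKI libraries, all below both DMSO libraries. At 1 h it read 241 to 604 (median 439, n = 59) and at 2 h 279 to 639 (median 440, n = 58), again below DMSO. At 4 h the range of 219 to 587 (median 363, n = 55) overlapped the DMSO values of 617 and 564. In UT the CKI libraries read 43 to 197 with a median of 115 (n = 73), around the DMSO values of 123 and 141. By compound, Pimasertib was lowest at −1.15 ± 0.16 from DMSO (limma, adjusted p = 4.242e-10), then Omipalisib at −1.12 and X396 at −0.99. Against the other CKIs of their runs these came to −0.47 (limma, adjusted p = 0.04422), −0.42 (limma, adjusted p = 0.03613) and −0.28 (limma, adjusted p = 0.2588). None was called, and Pimasertib and Omipalisib missed only the log2 threshold of 0.5. Encorafenib at −0.24, GSK461364 at −0.31 and Selumetinib at −0.32 were nearest to DMSO and not called.

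At the Nos2 promoter after LPS 33 of 58 CKIs were called higher than DMSO and 0 lower, with a median difference of 0.80. Of all pairs 32.3% were higher and 4.04% lower. With quantile normalization 8 CKIs were higher and 1 lower there, and against the run 0 were called. Filgotinib (−0.34), BMS911543 (−0.11) and Afatinib (0.08) were lowest against DMSO and not called, and VX702 (1.35), Volasertib (1.33) and MK5108 (1.24) were highest. With quantile normalization Filgotinib came to −0.69 and was called (limma, adjusted p = 0.04071). Against their runs VX702 (0.33), Volasertib (0.54) and MK5108 (0.22) were no longer called. Filgotinib and BMS911543, both JAK inhibitors of the same run, read 129 and 238 at 4 h of LPS, within the 126 to 344 of the other libraries of that run. At 2 h Filgotinib read 66, below all 10 others (137 to 252), and BMS911543 read 137. At −31.5 kb the range was −0.46 (BMS387032) to 1.08 (Talmapimod), and Talmapimod lost its call against its run (0.74) and with quantile normalization (0.62).

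The Arg2 promoter was highest after LPS with Omipalisib (1.47), BGT226 (1.42) and Talmapimod (1.19), and after IL-4 with Omipalisib (2.61), BGT226 (2.19) and BMS911543 (2.11), all called against DMSO. Omipalisib and BGT226 both inhibit PI3K and mTOR and fell in different runs. Against the other CKIs of its own run, BGT226 had the Arg2 promoter higher by 0.80 ± 0.18 after LPS (limma, adjusted p = 0.001332) and 1.10 ± 0.23 after IL-4 (limma, adjusted p = 8.037e-05), and Omipalisib by 0.73 (limma, adjusted p = 0.007354) and 0.81 (limma, adjusted p = 0.01156). Against their runs Talmapimod after LPS (0.56, limma, adjusted p = 0.2561) and BMS911543 after IL-4 (0.26, limma, adjusted p = 0.6872) were no longer called. In this comparison 12 member pairs were higher and 4 lower after LPS (1.31% of the member pairs, 1.1% of all) and 15 higher and 5 lower after IL-4 (1.64% and 1.21%), so the members as a group were near the background.

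With BGT226 the Arg2 promoter read 121 in UT, where the 10 other UT libraries of its run read 28 to 93. This UT library is part of both differences from the run given above. It read 279, 217, 193 and 325 at the 4 times of LPS, each above the highest other library of the run (204, 183, 155 and 195). After IL-4 it read 213, 176 and 144 until 2 h, again above the others, and 117 at 4 h, within them. The +7.3 kb element was above the others in all 4 IL-4 libraries and in UT, at 76 in UT and 135 to 181 after IL-4. Nos2 −4.2 kb was higher too, at 219 in UT against 91 to 155 and at 719 at 4 h of LPS against 279 to 384. BGT226 also lowered Arg1 −22.9 kb, −25.3 kb and −33.8 kb after IL-4 against its run, by 0.58, 0.61 and 0.67.

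With Omipalisib the Arg2 promoter read 130 in UT, within the run (60 to 159), and 278, 302, 189 and 263 at the 4 times of LPS, above all 10 others from 1 h on. After IL-4 it read 254, 357, 186 and 155, above all 9 others until 2 h. Libraries with Omipalisib held 563979 to 1568381 reads with a contrast of 5.21 to 21.9, and those with BGT226 1343414 to 6906723 with a contrast of 8.61 to 67.2. Each compound has 1 library per time, so its values carry no replicate of their own. PH797804, whose shallowest library held 173036 reads, differed from its run at several weak elements, with Arg1 −33.8 kb at 1.97 after LPS and the Nos2 promoter at 1.26 after IL-4.

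The last comparison asks whether inhibitors of 1 kinase family share a difference, with 1 value per CKI, the run as a covariate and the class set against all other CKIs. Classes were formed by designated target (6 JAK, 5 MEK and ERK, 4 p38 MAPK and 5 PI3K/mTOR inhibitors), and concentrations differed within and between them. The PI3K/mTOR class was higher at Arg2 after LPS, by 0.37 ± 0.09 at the promoter (limma, adjusted p = 0.0212, above the run mean in 4 of 5) and 0.46 ± 0.13 at +7.3 kb (limma, adjusted p = 0.0433, 5 of 5), where 1.56% of all CREs were called. After IL-4 the promoter stood at 0.39 ± 0.13 and missed the threshold (limma, adjusted p = 0.0809, 2.39% of CREs called). The LPS call at the promoter rested on single compounds. It came to 0.27 without BGT226 (limma, adjusted p = 0.1518) and 0.26 without Omipalisib (limma, adjusted p = 0.2535), and taken as a difference from each compound's own UT it was 0.029 at the promoter and 0.11 at +7.3 kb.

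No other class passed at any member in this fit. With library weights the MEK and ERK class passed after LPS at the Arg1 promoter (−0.33, limma, adjusted p = 0.01382) and +16.0 kb (−0.29), and the p38 MAPK class at Arg1 −33.8 kb (0.70), Nos2 −23.8 kb (0.69) and +48.3 kb (0.57). Without Talmapimod the p38 MAPK class passed after LPS at 4 members, which were Arg1 −33.8 kb (1.06), Arg2 +41.7 kb (−0.34), Nos2 −33.7 kb (−0.55, limma, adjusted p = 0.00395) and +48.3 kb (0.81). JAK kinases transmit the IL-4 signal to STAT6. After IL-4 the 6 JAK inhibitors differed from the other CKIs at the Arg1 promoter by −0.058 with a 95% interval of −0.19 to 0.078, and at −3.5 kb by −0.079 with an interval of −0.19 to 0.030. All 6 kept the rise, with the mean IL-4 level 1.03 (Filgotinib) to 2.32 (Tofacitinib) above own UT at the promoter. Tofacitinib read 90 in UT and 484, 539, 464 and 403 at the 4 times of IL-4, and Ruxolitinib read 120 and 127 in UT and 471, 429, 450 and 381. Both lay within the range of the other CKIs of their runs at every IL-4 time. Of all CREs 0.00507% were called for this class after IL-4 and 0 after LPS, and the concentrations differed between the 6.

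After LPS the JAK class stood at −0.29 at the Nos2 promoter, with a 95% interval of −0.49 to −0.10 and an unadjusted p of 0.003171, and did not pass over all CREs (limma, adjusted p = 1). The MEK and ERK class stood at −0.35 at the Arg1 promoter after LPS, with an interval of −0.60 to −0.10 (limma, adjusted p = 0.1891), and 5 members reached an unadjusted p under 0.05 in limma, 4 of them lower. No CRE was called for this class after LPS or IL-4 (0%). For p38 MAPK inhibitors 0.0101% of CREs were called after LPS and 0 after IL-4, and the Arg1 promoter stood at 0.28 after LPS, with an interval from −0.0047 to 0.56. The difference between the stimuli was called at no member for any class, with 0, 0, 0 and 0.0321% of all CREs called for JAK, MEK and ERK, p38 MAPK and PI3K/mTOR, and with 0, 1, 3 and 2 members at an unadjusted p under 0.05 in limma.

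**Figure D5:**
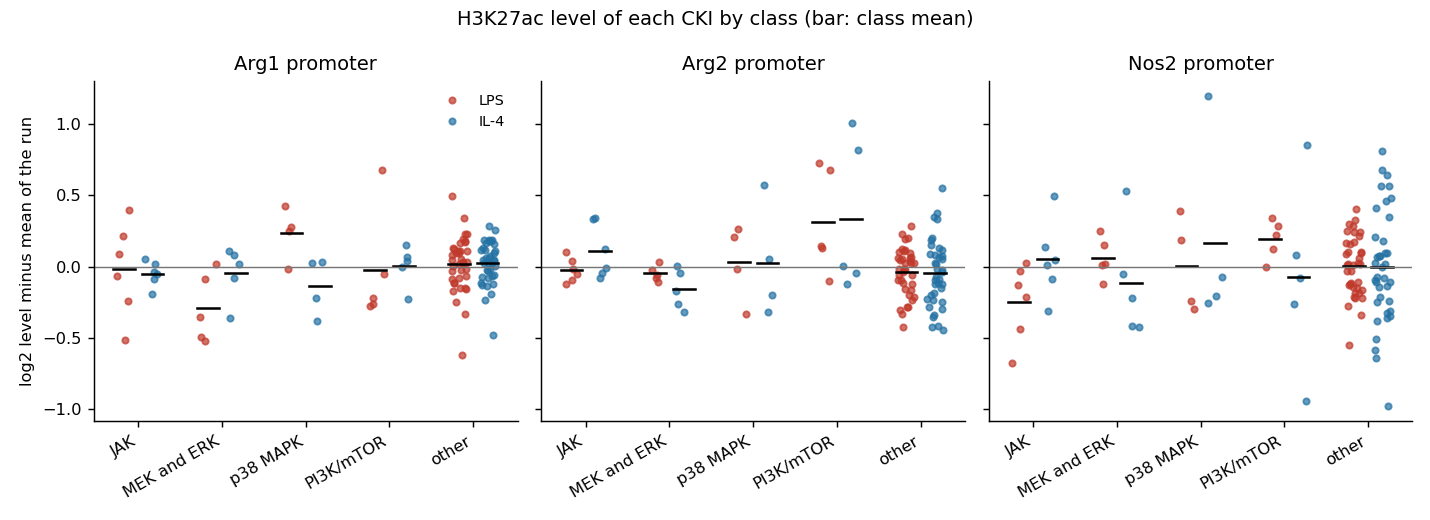
Mean log2 level of each CKI minus the mean of its run (vertical axis) at the 3 promoters by inhibitor class, LPS in red and IL-4 in blue, with a bar for the class mean. PI3K/mTOR points reach 0.73 with LPS and 1.01 with IL-4 at the Arg2 promoter, and the JAK points at the Arg1 promoter with IL-4 lie between −0.19 and 0.05.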

How the data were processed

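Adapters were removed, single-end reads were trimmed to 51 bases and mapped to mm10 with ShortStack, and the notes of the submitters also list Bowtie and SAMtools. The deposited values are normalized read counts at ATAC-seq elements, multiplied by the authors with 1 factor per library from invariant peaks and rounded to whole numbers, so they were treated as a score and count models were not used. A scaling on invariant peaks leaves differences in contrast between libraries, which move strong and weak elements in opposite directions. The width of each element in the deposited table (other values per the file headers) served for levels per kb. Widths vary, with a median of 1652 bp, although fixed windows around summits are described. Groups came from the labels, the label of UT naming 4 h and its title 0 h. The labels do not say whether replicates are separate cultures, so p-values measure the spread between these libraries, which may be technical.

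Here log2(value + 5) was fitted with limma 3.58.1 in R 4.3.3 (moderated tests with a mean trend) on elements with a mean of at least 10, with Benjamini-Hochberg adjustment over all elements tested. Thresholds were an adjusted p of 0.01 and a log2 difference of 1 for the time courses and for LPS against IL-4, 0.05 and 0.5 for CKIs against DMSO, and an adjusted p of 0.05 for classes. CKI time courses had the compound as a factor, and CKIs against DMSO the time, with UT among the times of each stimulus. The 6 runs of consecutive columns are a split seen in the column order and no labelled batch, and what they stand for is not stated. Each compound lies in 1 run, so a run cannot be told apart from its set of compounds. Values in every DMSO library were given for the promoter element of each gene and for its called element with the largest difference per stimulus, for CKIs the 3 lowest and 3 highest were named, and for likeness the 5 nearest promoters. Fits were tested on simulated data, where the CKI tests called too many differences in shallow libraries, so calls against DMSO were also set against the other CKIs of the run. The alternatives were a pseudocount of 1 or 20, no filter on the mean, quantile normalization, a replicate block, leaving out each replicate, all 18 DMSO libraries in 1 fit, the run as the reference, own UT, 2 h and 4 h alone, no run covariate and, chosen after seeing the data, depth as a covariate and weights of libraries or CKIs. One gene of the tetrahydrobiopterin list is not reported here. Members, gene lists and classes were chosen with earlier results of these data known. Element annotation used the RefSeq annotation of mm10.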

Additional observations from a re-analysis of the deposited data

Results flagged for a closer look

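In the PI3K/mTOR class after LPS, AZD2014 stood apart from the other 4 inhibitors at the Arg1 promoter. Its mean level was 0.68 above the mean of its run on the log2 scale, and the others lay between −0.28 and −0.05, so the gap to the nearest was 0.762 of the range of the 5. AZD2014 read 79, 107, 115 and 67 at the 4 times of LPS, the highest of its run at 1 h and 2 h, and its libraries held 528128 to 1910489 reads. In the p38 MAPK class after IL-4, PH797804 stood apart at the Nos2 promoter, at 1.19 against −0.26 to −0.07 in the other 3, a gap of 0.871 of the range of the 4. It read 115, 74, 43 and 69 at the 4 times of IL-4, above every other library of its run, and its libraries held 173036 to 2283188 reads. The distance of the outermost compound was examined in 24 groups of a class, a promoter and a stimulus, and chance gives about 1 in 20 such groups. The part of depth in either value was not tested.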

How the results depend on the processing

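The replicate numbers of the DMSO titles did not pair the libraries. Over 36 pairs of groups the deviations of same-numbered libraries correlated at −0.087 to 0.066. With the replicate number as a block, 27064 CREs were called after LPS (27125 without it), 11608 after IL-4 (11608) and 29547 for LPS against IL-4 (29544), with 12, 11 and 14 members each time. With a pseudocount of 20 the IL-4 course gave 7569 calls. Leaving out 1 library gave 24327 to 27360 calls after LPS with 11 to 13 members, 10199 to 11862 after IL-4 with 10 to 12 members, and 29128 to 29718 for LPS against IL-4 with 14 to 15 members, where a lone replicate was assumed to vary like the other groups. Quantile normalization moved the median of the largest difference over all CREs from 0.37 to −0.30 after LPS and from 0.21 to −0.28 after IL-4, with 8 members higher and 3 lower after LPS and 10 higher and 0 lower after IL-4. Of 192 values of named elements 188 kept their side of the threshold after LPS and 187 of 192 after IL-4, and the exceptions are given beside those elements.

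The CKI comparisons depended most on the reference. After LPS 450 member pairs were called against DMSO, 40 with quantile normalization, 16 against the run, 177 with the depth covariate and 324 to 334 with 1 DMSO replicate left out. After IL-4 these were 640, then 141, 20, 280 and 532 to 560. The counts against the run concern differences between CKIs, since a difference from DMSO that a run shares drops out of them. For the classes there were 2 calls, PI3K/mTOR at the Arg2 promoter and +7.3 kb after LPS. Without the run covariate there was 1, the promoter, and with quantile normalization 4, which held both. Both were lost with weights (limma, adjusted p = 0.2186 and 0.2354), which gave 5 calls of the MEK and ERK and p38 MAPK classes, and at 2 h and 4 h alone (limma, adjusted p = 0.3816 and 0.4731), which gave 1, p38 MAPK at Nos2 −33.7 kb (−0.61). Taken from own UT there were 0. With the depth covariate, and without AZD2014, +7.3 kb was lost (limma, adjusted p = 0.06135 and 0.05998). Leaving out 1 compound gave 0 to 6 calls, with 0 without BGT226 or Omipalisib and 6 without Talmapimod, of which 4 were p38 MAPK.

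Of 480 values of CKIs named as lowest or highest, 44 kept their sign and lost their call, 16 gained one and 35 changed sign, and the cause was not tested. Against the run the changes of sign were, after LPS, Afatinib at the Nos2 promoter (−0.19), Refametinib (−0.27) and GSK2110183 (−0.35) at Arg1 −22.9 kb, and PH797804 (−0.30), SGX523 (−0.38) and Telatinib (−0.39) at the Arg2 promoter. After IL-4 they were Poziotinib (−0.20), Capmatinib (−0.25) and Selumetinib (−0.31) at the Arg2 promoter, AZD1208 (−0.34), Midostaurin (−0.51) and Lenvatinib (−0.64) at Nos2 +25.3 kb, Ruxolitinib (−0.36), SGX523 (−0.67) and TG100115 (−0.68) at Arg2 +7.3 kb, and Selumetinib (0.073), GSK461364 (0.089) and Encorafenib (0.23) at the Arg1 promoter. With quantile normalization they were, after IL-4, Midostaurin (−0.027) and Lenvatinib (−0.24) at Nos2 +25.3 kb, Neratinib (−0.14) at Arg1 −33.8 kb, and TG100115 (−0.33) and SGX523 (−0.40) at Arg2 +7.3 kb, and after LPS Refametinib (−0.15) and GSK2110183 (−0.40) at Arg1 −22.9 kb and Afatinib (−0.16) at the Nos2 promoter. With the depth covariate they were, after IL-4, TG100115 (−0.081) and SGX523 (−0.14) at Arg2 +7.3 kb and Lenvatinib (−0.77) at Nos2 +25.3 kb, and after LPS Selumetinib (0.010) at Arg1 −22.9 kb. With weights after LPS they were Afatinib (−0.032) at the Nos2 promoter, and GSK2110183 (−0.12) and Selumetinib (0.024) at Arg1 −22.9 kb. There, with 1 DMSO replicate left out, GSK2110183 came to −0.033 and 0.085 and Selumetinib to −0.082 and 0.039. Depth limits the weakest elements, since 1 read was worth 0.512 to 2.54 in the DMSO libraries and up to 23.5 in the CKI libraries.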

Other observations

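A few IL-4 libraries had Nos2 promoter values near those seen after LPS. The highest were BMS387032 at 1 h (241), SGI1776 at 4 h (238), Silmitasertib at 2 h (214), Momelotinib at 4 h (180) and Lenvatinib at 0.5 h (132), against a median of 26 to 38.5 at the 4 times over the CKI libraries. The Arg1 promoter in the same libraries read 395, 393, 364, 296 and 226. Their contrast was 3.34, 5.34, 6.35, 4.51 and 6.05, against a median of 17.6 over the CKI libraries, with 720844, 915369, 874243, 1338758 and 538546 reads. The part of contrast in these values was not tested.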
